A study of Rattus norvegicus with 6 samples.

Results

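A set of 38 genes that mark or act on the vascular endothelium was followed in pancreatic islets of young and older rats. The genes were chosen by name, as endothelial junction proteins, receptors, transcription factors, adhesion molecules and vessel-directed ligands; the rule used no measured value, but earlier results of these data were known when the set was drawn up. Of the 38 genes, 30 had a probe that could be matched by name and 26 were bright enough to be tested, out of 11189 tested genes among 13888 named genes with a probe. RNA was taken from islets of male Wistar rats aged 3 months and 12 months, with 3 arrays per age, and hybridised to 1-colour Arraystar/Agilent arrays. The islets had been freed from the pancreas with collagenase. No rat was described as carrying an allele or receiving an agent, so that age was the only labelled difference. Per the design text the islets came from 3 rats of each age, and the p-values measure the spread between these 3 samples per age. The sources used here do not state how long the islets were kept in culture before RNA was extracted.

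Islets are supplied by a dense bed of fenestrated capillaries. Their endothelial cells are held together by claudin and cadherin junctions, and the diaphragms of their pores are built from the product of *Plvap*. Endocrine cells release vascular endothelial growth factor A, which acts on receptors of the endothelium, while angiopoietins act through the receptor encoded by *Tek*, and endothelins, sphingosine 1-phosphate and nitric oxide regulate vessel tone and permeability. In islet RNA as a whole, fewer endothelial cells and less RNA per endothelial cell cannot be told apart.

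Levels are quantile-normalized log2 signals of 1 probe per gene, and a difference is the 12-month mean minus the 3-month mean, so that a difference of 1 is a doubling. Each age was read in a scan of its own, and the effects of the scan cannot be told apart from those of age. Between 59.5% and 64.2% of probes were well above background on the 12-month arrays and between 73.0% and 77.4% on the 3-month arrays. Negative control spots had a median signal of 89.5 to 91 units at 12 months and 29.5 to 31 units at 3 months, and its part in the results for dim genes was not tested. As a check of the tissue, the insulin transcript *Ins1* read 18.86, 18.43 and 18.72 on the 3-month arrays and 18.72, 18.72 and 18.86 on the 12-month arrays.

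The endothelial genes moved in both directions between the ages. The vessel junction gene *Cldn5* fell at 12 months 4.96-fold from its 3-month level, while the endothelin ligand gene *Edn1* and the sphingosine 1-phosphate receptor gene *S1pr1* rose. These were the only members with an adjusted p under 0.05 (limma, Benjamini-Hochberg over all tested probes), 2 of 26 higher and 1 of 26 lower, where 4.88% of all tested genes were higher and 2.98% lower. At an unadjusted p under 0.05, 12 of the 26 members and 3419 of the 11189 genes passed in limma. The study counted a gene when it changed more than 2-fold with p under 0.05 before adjustment, a p that its supplement takes from a paired test. With that threshold applied to the unpaired limma p, called the threshold of the study here, 5 members were higher (*Pecam1*, *Ramp2*, *S1pr1*, *Sox18* and *Edn1*) and 5 lower (*Cdh5*, *Cldn5*, *Tek*, *Icam2* and *Bcl6b*), against 9.8% of all tested genes higher and 9.64% lower. With such a paired test in place of limma, 1 was higher and 3 lower. The share of all tested genes under that test is not given here, so these counts cannot be set against it. The arrays of the ages did not overlap for 6 members that were higher at 12 months and 7 that were lower, against 17.1% and 22.2% of all tested genes. *Cdh5*, which no 12-month array read well above background, is among the lower members in the limma count and in this one. Of the 22 members well above background on all 6 arrays, 4 were higher and 4 lower at the threshold of the study in limma. Of 9078 such genes 922 were higher and 695 lower.

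The differences of the 26 members were spread about the level of the whole array. They had a median of -0.13, equal at this rounding to the median of -0.13 over all tested genes, with 12 members above 0 and 14 below. Their SD was 1.23 against 0.97 for all tested genes, and the median size of a difference was 0.70 against 0.56. When each array was instead shifted to a common 75th percentile, the median of all genes was -0.34 and that of the members -0.25. Under that shift 2 members were called higher and 2 lower at the adjusted threshold, and 3 were higher and 6 lower at the threshold of the study. The shift turned the whole array in the same way, with 4.05% of all tested genes called higher and 4.98% lower, and 7.47% higher and 15.8% lower at the threshold of the study. Apart from *Erg*, every member kept the sign of its difference under that shift and under normexp background correction.

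**Figure D1:**
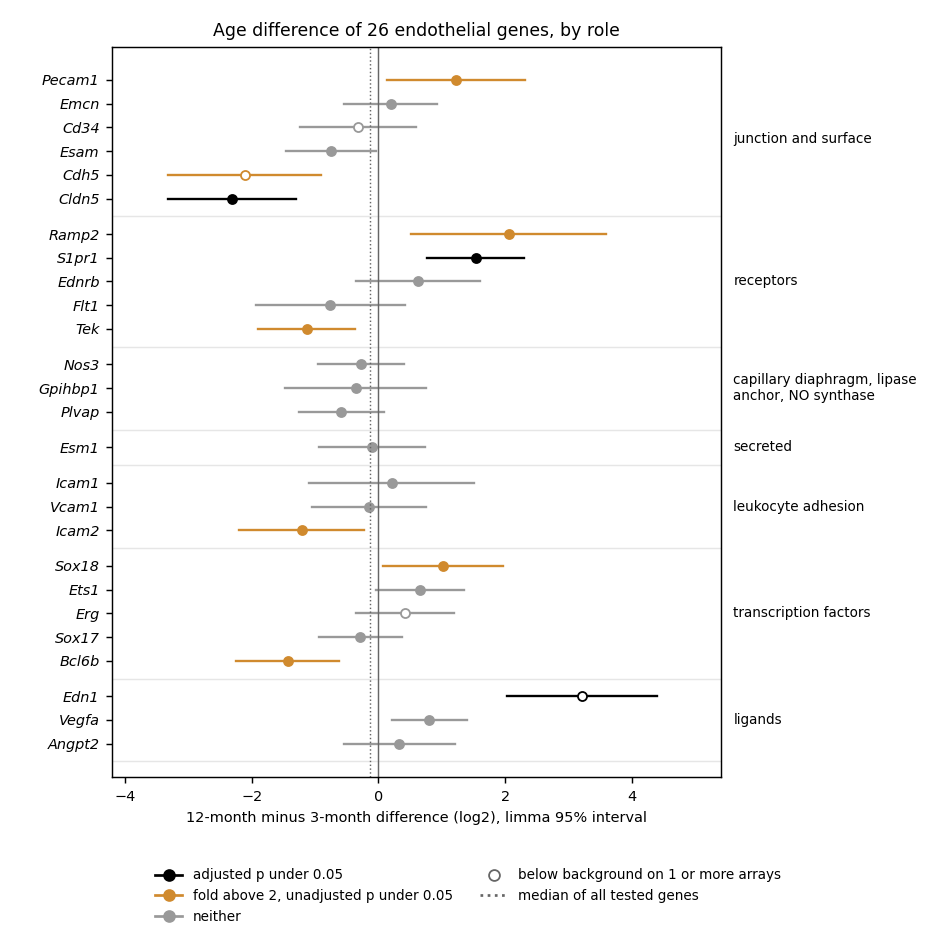
Difference between 12-month and 3-month islets (log2, horizontal axis) for the 26 tested endothelial genes, grouped by role, with points for the difference and bars for the limma 95% interval. Black marks an adjusted p under 0.05, orange the threshold of the study and grey neither, open points were below background on 1 or more arrays, and the dotted line is the median of all tested genes at -0.13. Both signs occur among the junction proteins, receptors, adhesion molecules and transcription factors, and all 3 tested ligands lie above 0.

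To show what stands before the genes that passed the adjusted threshold, the 250 bases before the annotated start of *Cldn5*, *S1pr1* and *Edn1* are printed 5′ to 3′ from RefSeq, assembly GRCr8, on the strand of the gene. The windows lie at chr11:95718599-95718848 for *Cldn5*, chr2:206314071-206314320 for *S1pr1* and chr17:22666688-22666937 for *Edn1*, all on the minus strand. Capitals mark each match, on either strand, to 6 short motifs: GGAAG for ETS factors, ACAAT for SOX factors, AGATAA for GATA factors, ACGTG for the hypoxia response, TGANTCA for AP-1 and TATAAA for the TATA box. Marked letters in the other orientation read as the reverse complement.
Cldn5: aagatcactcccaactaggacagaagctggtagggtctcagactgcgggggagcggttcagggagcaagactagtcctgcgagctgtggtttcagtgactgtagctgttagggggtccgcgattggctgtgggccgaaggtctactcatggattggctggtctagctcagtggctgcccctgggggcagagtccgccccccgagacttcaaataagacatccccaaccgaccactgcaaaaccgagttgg
S1pr1: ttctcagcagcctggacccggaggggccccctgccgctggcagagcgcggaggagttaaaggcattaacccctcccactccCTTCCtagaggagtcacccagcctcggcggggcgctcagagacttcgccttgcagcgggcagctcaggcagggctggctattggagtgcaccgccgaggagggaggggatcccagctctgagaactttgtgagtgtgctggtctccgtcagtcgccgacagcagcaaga
Edn1: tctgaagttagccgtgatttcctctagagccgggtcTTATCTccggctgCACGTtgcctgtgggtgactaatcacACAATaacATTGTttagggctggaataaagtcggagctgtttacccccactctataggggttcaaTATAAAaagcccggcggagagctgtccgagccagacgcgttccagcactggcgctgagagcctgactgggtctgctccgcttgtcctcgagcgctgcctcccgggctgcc
The *Cldn5* window held none of the 6 motifs and 58.4% G and C. The *S1pr1* window held 1 ETS core, beginning 169 bases before the start, and 64.8% G and C. The *Edn1* window held 2 SOX cores, 1 GATA core, 1 hypoxia response core and 1 TATA box, the last beginning 110 bases before the annotated start, and 56.4% G and C. Each of these motifs is frequent. Over 24 such windows matched to 22 of the 38 members, with 16 members not matched, the ETS core was present in 17, or 70.8%, against 63.3% of all 33469 promoters. The SOX core was in 25% of the member windows against 30% of all, and the GATA core in 12.5% against 10.3%. The hypoxia response core was in 20.8% against 16.6%, the AP-1 motif in 4.17% against 6.34% and the TATA box in 25% against 12.9%. A match is a run of letters and not a bound site, and its absence says only that these letters are not in the window.

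Among the ligands, *Edn1*, which encodes endothelin 1, a vasoconstrictor peptide made by endothelial cells, had a larger difference than the other 25 tested members in these values and under the 75th percentile shift, but not under normexp, where that of *Cldn5* was larger. It read 3.72, 5.33 and 4.15 on the 3-month arrays and 8.28, 7.11 and 7.46 on the 12-month arrays. Every 12-month array stood above every 3-month array, and the probe was well above background on 2 of the 3 young arrays and on all older ones. The mean rose from 4.40 ± 0.83 to 7.61 ± 0.60 (SD, n = 3), a difference of 3.21 (SE 0.50) or 9.28-fold with a 95% interval from 4.08 to 21.1 (limma, adjusted p = 0.0180). With normexp background correction, which compresses differences between dim signals, the rise was 1.54. The adjusted p was 0.0689 without 12-month array 1, 0.0607 without 12-month array 3, 0.0642 without 3-month array 1 and 0.0637 without 3-month array 3 (limma).

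*Vegfa*, the growth factor that endocrine cells release towards the capillaries, read 13.68, 14.15 and 14.28 at 3 months and 14.79, 14.93 and 14.81 at 12 months. The groups did not overlap, with the young arrays more spread than the older ones. The difference was 0.80 (SE 0.25), or 1.75-fold, and missed the adjusted threshold (limma, adjusted p = 0.0875). It was called under normexp (limma, adjusted p = 0.0451) and with an intensity trend and robust variances (limma, adjusted p = 0.0360). Under the 75th percentile shift its difference was 0.455 (limma, adjusted p = 0.289). All 5 *Vegfa* probes, each annotated to another RefSeq transcript of the gene, gave differences between 0.79 and 0.88. Whether they read separate transcripts or a shared stretch is not known here.

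*Angpt2*, the angiopoietin that endothelial cells themselves store and release, differed by 0.33 (limma, adjusted p = 0.555) with overlapping groups. *Angpt1*, the angiopoietin of pericytes and other perivascular cells, read 3.58, 3.35 and 2.03 at 3 months and 3.88, 2.08 and 2.09 at 12 months. No array read it well above background, and it was not tested.

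**Figure D2:**
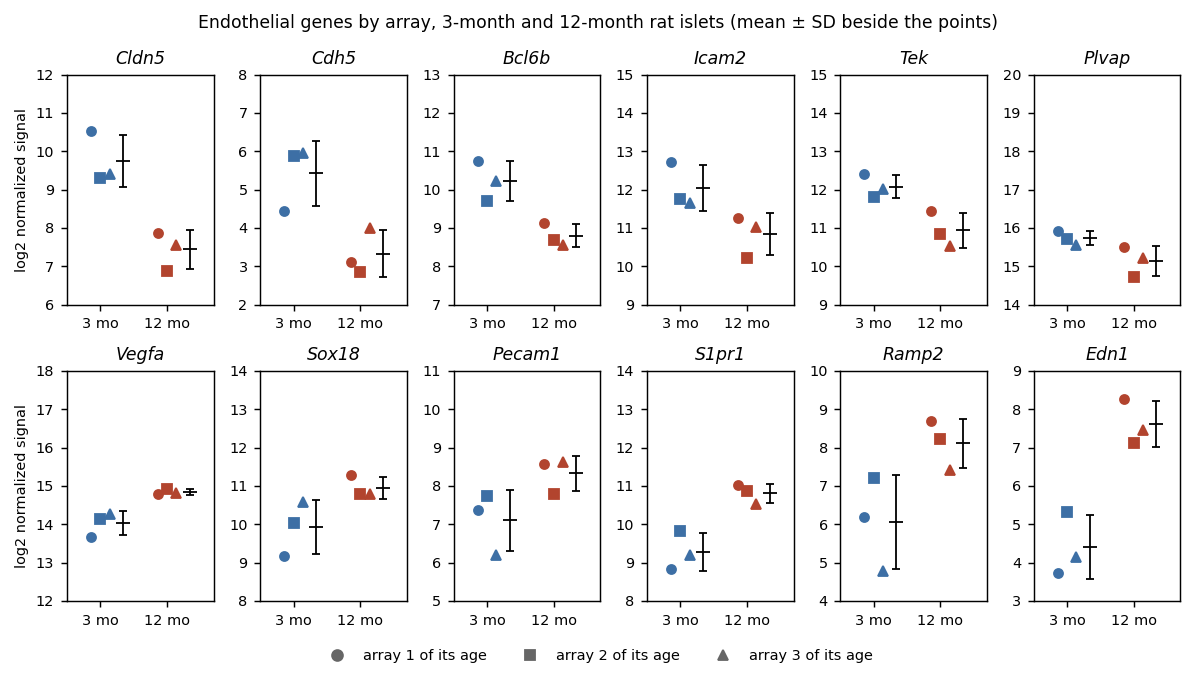
Quantile-normalized log2 signal (vertical axes, each spanning 6 log2 units and none starting at 0) of 12 endothelial genes on the 3 arrays of each age, with a marker shape for the array and a bar for the mean ± SD beside the points. The 6 genes of the upper row are lower on all 12-month arrays than on any 3-month array and the 6 of the lower row are higher, with the largest separation in *Edn1*. Apart from *Plvap* and *Vegfa*, the genes were shown because they passed a threshold on these same values, which favours separated groups. Of all 26 tested members 13 had overlapping groups. *Cdh5* was well above background on 0 of 3 arrays at 12 months.

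Of the 10 receptor genes 5 were tested, 1 rose at the adjusted threshold and 0 fell (limma), with 3 of the 5 at an unadjusted p under 0.05, as were 3419 of all 11189 tested genes. *S1pr1* encodes the receptor through which sphingosine 1-phosphate tightens the endothelial barrier. Its 3-month arrays read 8.83, 9.82 and 9.19 and its 12-month arrays 11.03, 10.86 and 10.54. All 12-month arrays were higher than any 3-month array. The mean rose from 9.28 ± 0.50 to 10.81 ± 0.25 (SD, n = 3), a difference of 1.53 (SE 0.32) or 2.89-fold (limma, adjusted p = 0.0375). The adjusted p was 0.141 without 12-month array 1, 0.0548 without 12-month array 2, 0.0858 without 12-month array 3, 0.107 without 3-month array 1 and 0.105 without 3-month array 3 (limma).

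*Ramp2*, whose product joins the calcitonin receptor-like receptor to form a receptor for adrenomedullin, read 6.20, 7.21 and 4.78 at 3 months and 8.69, 8.23 and 7.42 at 12 months. The groups did not overlap, although the lowest older array stood only a little above the highest young one. The difference was 2.05 (SE 0.64), or 4.15-fold, with an adjusted p of 0.0879 in limma. Under normexp it was 1.21.

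*Tek*, the angiopoietin receptor, read 12.40, 11.80 and 12.02 at 3 months and 11.44, 10.83 and 10.53 at 12 months, with no overlap. The difference was -1.14 (SE 0.32), or 2.20-fold lower, with an adjusted p of 0.0720 in limma, and it was called under normexp (limma, adjusted p = 0.0435) and with an intensity trend and robust variances (limma, adjusted p = 0.0413). The *Tek* difference was thus opposite in sign to those of *S1pr1* and *Ramp2*.

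The remaining receptors did not pass or could not be read. *Flt1*, a receptor and decoy for vascular endothelial growth factor, differed by -0.76 (limma, adjusted p = 0.316), and the endothelin receptor gene *Ednrb* by 0.63 (limma, adjusted p = 0.321), both with overlapping groups. The receptor of lymphatic and sprouting endothelium, *Flt4*, was well above background on 1 array only, the 3-month array 2, and was not tested. *Kdr*, the main signalling receptor for vascular endothelial growth factor, had no probe matched by name, nor had *Tie1*, *Eng* and *Robo4*.

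Of the 6 tested junction and surface proteins 1 fell and 0 rose at the adjusted threshold (limma), and 4 had an unadjusted p under 0.05, against 3419 of all 11189 tested genes. *Cldn5* encodes claudin 5, the tight junction strand protein of endothelium. It read 10.52, 9.31 and 9.41 at 3 months and 7.87, 6.88 and 7.56 at 12 months. Every older array was well below every young one, and all 6 were well above background. The mean fell from 9.75 ± 0.67 to 7.44 ± 0.51 (SD, n = 3), a difference of -2.31 (SE 0.43) or 4.96-fold lower (limma, adjusted p = 0.0271). The adjusted p was 0.0736 without 12-month array 1, 0.0796 without 12-month array 3, 0.0708 without 3-month array 1 and 0.0665 without 3-month array 3 (limma).

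*Cdh5* encodes VE-cadherin, the adherens junction protein that defines endothelium. Its probe read 4.45, 5.87 and 5.96 at 3 months and 3.11, 2.84 and 4.01 at 12 months. It was well above background on all 3-month arrays but on 0 of 3 at 12 months, which leaves only a bound. In the quantile-normalized values *Cdh5* was at least 1.54-fold lower at 12 months. For this bound, which applies to these values only, the young mean of 5.43 was set against a floor on each older array. The floor was the higher of the probe's own signal and the lowest signal well above background. The measured means differed by -2.11 (SE 0.51; limma, adjusted p = 0.0515), and by -0.50 under normexp (limma, adjusted p = 0.147). *Cdh5* was called under the 75th percentile shift (-2.71; limma, adjusted p = 0.0202), with the authors' table (limma, adjusted p = 0.0495) and with an intensity trend and robust variances (limma, adjusted p = 0.0456). The probe met the filter only through its 3-month arrays. All these p-values rest on 12-month readings that were not well above background, and they add nothing to the bound.

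*Pecam1*, the adhesion molecule at endothelial cell borders, read 7.36, 7.75 and 6.21 at 3 months and 8.57, 7.80 and 8.62 at 12 months. The groups did not overlap, although 12-month array 2 stood barely above 3-month array 2. The difference was 1.23 (SE 0.46), or 2.34-fold higher, with an adjusted p of 0.124 in limma. Under the 75th percentile shift *Pecam1* no longer passed the threshold of the study. Among these junction and surface genes it was the 1 gene past that threshold that was higher and not lower.

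*Esam*, another adhesion molecule of endothelial tight junctions, differed by -0.75 (limma, adjusted p = 0.137) without overlap of the groups. The sialomucin genes *Emcn* and *Cd34* differed by 0.19 and -0.33 (limma, adjusted p = 0.681 and 0.574), with overlap. *Cd34* was well above background on 0 of 3 arrays at 12 months, and so near the background at 3 months that no bound can be given. *Ptprb*, the phosphatase that restrains the angiopoietin receptor, had no matched probe.

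The genes of the capillary wall itself were lower in mean but did not pass. *Plvap* read 15.92, 15.71 and 15.55 at 3 months and 15.49, 14.71 and 15.21 at 12 months, with each older array below each young one. Its difference of -0.59 (SE 0.28) had a limma adjusted p of 0.194. *Gpihbp1*, which anchors lipoprotein lipase to the capillary surface, and *Nos3*, the endothelial nitric oxide synthase, differed by -0.36 and -0.28 (limma, adjusted p = 0.609 and 0.519), with overlap.

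Of the secreted proteins, *Esm1*, a proteoglycan made by growing vessel tips, differed by -0.11 (limma, adjusted p = 0.850). *Vwf*, the clotting and platelet adhesion protein of endothelial granules, had no matched probe, and neither had *Egfl7* and *Mmrn2*.

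Among leukocyte adhesion genes, *Icam2*, which resting endothelium expresses constitutively, read 12.73, 11.75 and 11.65 at 3 months and 11.25, 10.22 and 11.03 at 12 months. All older arrays lay below the young ones. The difference was -1.21 (SE 0.41), or 2.32-fold lower, with an adjusted p of 0.102 in limma. The cytokine-inducible *Icam1* and *Vcam1* differed by 0.21 and -0.15 (limma, adjusted p = 0.811 and 0.802), and the *Icam1* readings of the older arrays spread from 7.09 to 9.13. The selectin genes *Sele* and *Selp* did not reach well above background on any of the 6 arrays and were not tested.

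Of the 5 tested transcription factors 0 were called in limma. An unadjusted p under 0.05 was found for 2, 1 of each sign, against 3419 of all 11189 tested genes. *Bcl6b*, a zinc finger repressor enriched in endothelium, read 10.75, 9.69 and 10.23 at 3 months and 9.13, 8.68 and 8.56 at 12 months. The groups did not overlap. The difference was -1.43 (SE 0.34), or 2.70-fold lower, and narrowly missed the adjusted threshold (limma, adjusted p = 0.0504). It was called with normexp (limma, adjusted p = 0.0283), with the values of the authors' table (limma, adjusted p = 0.0483), with probes above background on all 6 arrays (limma, adjusted p = 0.0368), with an intensity trend and robust variances (limma, adjusted p = 0.0374) and without 3-month array 2 (limma, adjusted p = 0.0467).

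*Sox18*, a factor of arterial and lymphatic vessel development, read 9.17, 10.04 and 10.58 at 3 months and 11.28, 10.78 and 10.78 at 12 months. The older arrays were all higher, 2 of them only a little above 3-month array 3. The difference was 1.02 (SE 0.40), or 2.03-fold, with an adjusted p of 0.135 in limma, and under the 75th percentile shift *Sox18* no longer passed the threshold of the study. Its relative *Sox17* differed by -0.29 (limma, adjusted p = 0.490).

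*Ets1* differed by 0.66 (limma, adjusted p = 0.172) with groups that overlapped. *Erg*, an ETS factor needed for vessel stability, differed by 0.41 (limma, adjusted p = 0.399), but 0 of 3 older arrays read it well above background, and its difference was of the opposite sign under the 75th percentile shift. For every member whose groups did not overlap, the exact two-sided permutation test of 3 arrays against 3 gives p = 0.1, the smallest value this design allows.

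Within an age, the members tended to be highest on the same array. Over the 22 members well above background on all 6 arrays, 12-month array 1 was the highest of its age for 17 members, against 25.0% of 9078 genes measured in the same way. Among the young arrays, array 1 was highest for 11 of the 22, against 28.2% of those genes, and array 3 lowest for 11, against 36.9%. The mean level of the 22 members ran from 9.70 to 9.99 on the 3-month arrays and from 9.63 to 10.13 on the 12-month arrays, so that the ages overlapped. On 12-month array 1 these members stood 0.29 above their mean over 6 arrays, and the other endothelial genes 0.54. Acinar markers stood 0.37 above theirs, pericyte and smooth muscle markers 0.57, duct markers 0.57 and immune markers 0.62. NF-κB and cytokine response genes stood 0.76 above, red blood cell markers 1.1 and fibroblast markers 1.34. Endocrine markers, at 0.20, stood less high than the members. So did genes of the vascular endothelial growth factor, angiopoietin and endothelin pathway, at 0.07, and Schwann cell markers, at -0.11. The part of these other cells in the members' ordering was not tested.

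**Figure D3:**
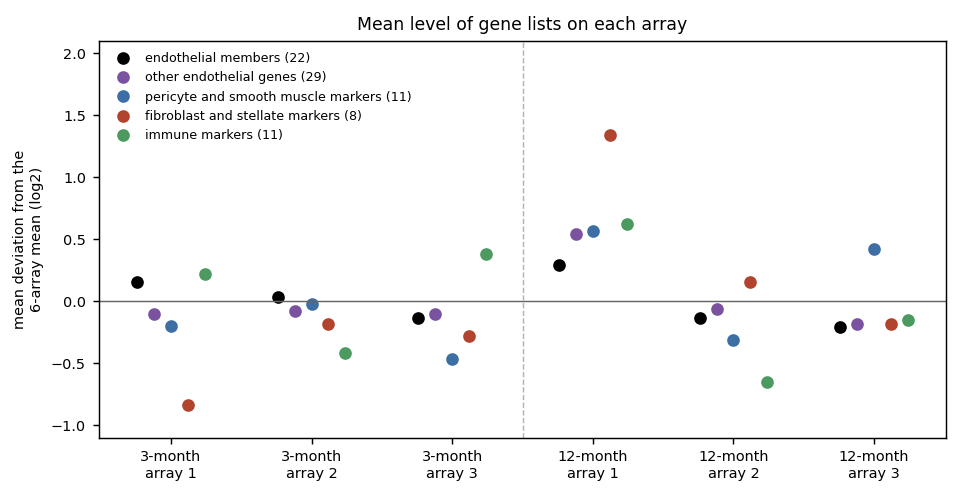
Mean deviation of a gene list from its own mean over the 6 arrays (log2, vertical axis) for each array (horizontal axis), with 1 point per list: 22 endothelial members, 29 other endothelial genes, 11 pericyte, 8 fibroblast and 11 immune markers. On 12-month array 1 all 5 lists lie above 0, from 0.29 for the members to 1.34 for fibroblast markers, and on the other arrays the members stay between -0.21 and 0.15.

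Endothelial genes outside the 38 were described in the same way. Of 40 further genes 29 were tested. At the adjusted threshold 3 rose and 1 fell, against 4.88% of all tested genes higher and 2.98% lower. At the threshold of the study 5 were higher and 2 lower, against 9.8% and 9.64% of all tested genes. *Fabp4*, a fatty acid binding protein of capillary endothelium and fat cells, read 7.86, 8.26 and 9.15 at 3 months and 11.33, 10.68 and 10.73 at 12 months. The 12-month arrays were all higher, by 2.49 (SE 0.39; limma, adjusted p = 0.0185). *Ackr3*, a scavenging receptor for the chemokine CXCL12, was higher by 2.59 (SE 0.41; limma, adjusted p = 0.0184).

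The organic anion transporter gene *Slco1a4* was higher by 2.70 (SE 0.52; limma, adjusted p = 0.0305), with 2 of 3 young arrays above background, and was not called under normexp. *Rasip1*, whose product is needed for the opening of vessel lumens, fell by 1.16 (SE 0.24; limma, adjusted p = 0.0355). *Rhoj*, a small GTPase of endothelium, differed by 1.69 (SE 0.43; limma, adjusted p = 0.0589). The median of the 29 genes was -0.10, so that this list too had members on both sides of the array's median.

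In the wider pathway of vascular endothelial growth factors, angiopoietins, endothelins and their regulators, 25 of 34 genes were tested, 3 rose and 0 fell (limma, adjusted p under 0.05), and 10 of the 25 had an unadjusted p under 0.05. Over all tested genes such an unadjusted p was found for 3419 of 11189, and at the adjusted threshold 4.88% were higher and 2.98% lower. At the threshold of the study 4 pathway genes were higher and 4 lower, against 9.8% and 9.64% of all tested genes. *Smad1* and *Smad5*, which carry signals of bone morphogenetic protein receptors, were higher by 3.06 (SE 0.47; limma, adjusted p = 0.0177) and 2.16 (SE 0.39; limma, adjusted p = 0.0263). *Hif1a*, the oxygen-regulated factor that induces *Vegfa*, read 11.77, 12.55 and 11.79 at 12 months, each above all 3-month arrays, and was higher by 1.68 (SE 0.34; limma, adjusted p = 0.0335). *Edn3*, a second endothelin ligand, and *Pgf*, placental growth factor, had differences of -2.09 and -1.27 (limma, adjusted p = 0.0689 and 0.0711), opposite in sign to those of *Edn1* and *Vegfa*.

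Pericytes and smooth muscle cells share the vessel wall with endothelium, and 12 of 14 marker genes were tested. At the adjusted threshold 2 rose and 2 fell, where 4.88% of all tested genes were higher and 2.98% lower, and the median was 0.57. The pericyte receptor gene *Pdgfrb* read 8.74, 9.56 and 8.46 at 3 months and 11.11, 10.31 and 10.38 at 12 months, higher by 1.68 (SE 0.38; limma, adjusted p = 0.0453). *Abcc9*, the regulatory subunit of the vascular ATP-sensitive potassium channel, was higher by 2.82 (SE 0.42; limma, adjusted p = 0.0162), and *Kcnj8*, its pore, by 1.75 (SE 0.43; limma, adjusted p = 0.0535).

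The smooth muscle gene *Cnn1* and the mural cell receptor gene *Notch3* fell by 1.84 (SE 0.39) and 1.62 (SE 0.31) (limma, adjusted p = 0.0374 and 0.0291). The mean level of the pericyte and smooth muscle list, over the 11 tested genes with a value on every array, ran from 8.70 to 9.14 at 3 months. At 12 months this mean ran from 8.85 to 9.73. The defining smooth muscle marker *Acta2* had no matched probe. The part of mural cells in the members' differences was not tested.

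**Figure D4:**
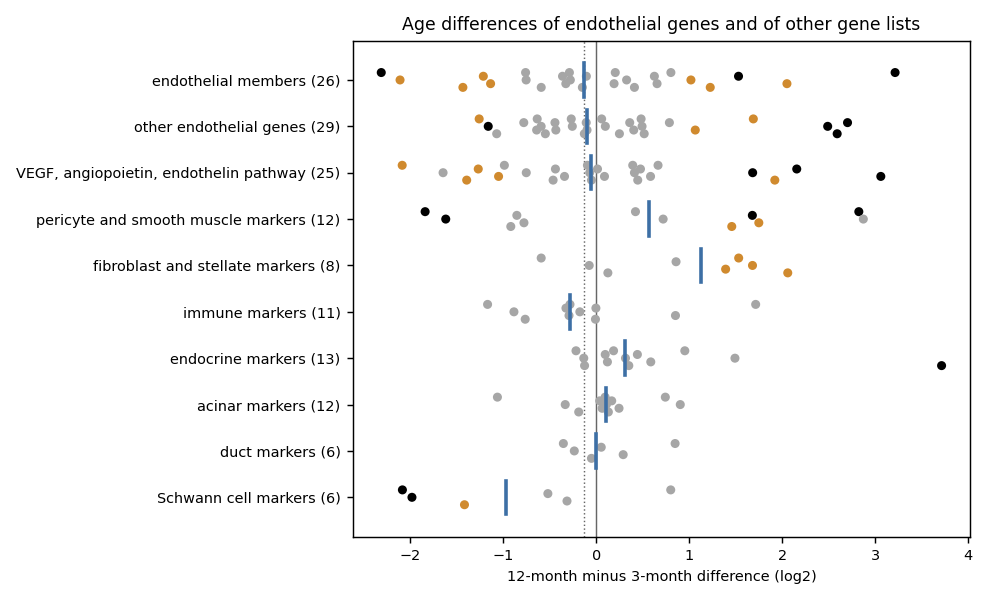
Difference between 12-month and 3-month islets (log2, horizontal axis) of each tested gene in the 26 endothelial members and in 9 other lists, with the number of tested genes in brackets, 1 point per gene and a blue bar at each list's median. Black points have an adjusted p under 0.05, orange points passed the threshold of the study alone, and the dotted line is the median of all tested genes. The members reach from -2.31 to 3.21 about a median of -0.13, while the fibroblast list has its median at 1.13.

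Markers of other cells that collagenase-isolated islets can hold were read in the same fit. Of 8 fibroblast and stellate markers 0 were called in limma, 4 had an unadjusted p under 0.05 and all 4 were higher at 12 months (*Col3a1*, *Dcn*, *Lum* and *Postn*). The other 4 differed by 0.86 (*Col1a2*), 0.13 (*Pdgfra*), -0.07 (*Vim*) and -0.59 (*Fn1*). Over all 11189 tested genes 3419 had an unadjusted p under 0.05 in limma. The mean level of the list ran from 10.69 to 11.35 at 3 months and from 11.35 to 12.87 at 12 months. All 8 genes were highest on 12-month array 1. There the list stood 1.34 above its mean over 6 arrays, against 0.15 and -0.19 on 12-month arrays 2 and 3. *Col3a1*, a fibrillar collagen, was higher by 1.68 (limma, adjusted p = 0.0670). Of 11 immune markers, 12 acinar markers and 6 duct markers 0 were called in limma and 0 had an unadjusted p under 0.05. The leukocyte marker *Ptprc* differed by -0.01 (limma, adjusted p = 0.993), and the acinar marker *Prss1* had no matched probe. The acinar list ran from 15.64 to 16.67 at 3 months and from 15.45 to 16.88 at 12 months in mean level, and the immune list from 9.75 to 10.55 and from 9.52 to 10.79.

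Of 13 endocrine markers 1 rose, the zinc transporter gene *Slc30a8*, by 3.71 (SE 0.44; limma, adjusted p = 0.00904), and *Ins1* differed by 0.10 (limma, adjusted p = 0.786). Of 6 Schwann cell markers 0 rose and 2 fell, the myelin gene *Mbp* by 1.98 (limma, adjusted p = 0.0184) and the glial factor gene *Sox10* by 2.08 (limma, adjusted p = 0.0335). Over all tested genes 4.88% rose and 2.98% fell at the adjusted threshold. For *Sox10* 3-month array 1 gave no value and was left out of the fit. Of 5 red blood cell markers 0 were called in limma and 1 had an unadjusted p under 0.05, *Alas2*, with a difference of -1.47 (limma, adjusted p = 0.149). The mean level of the endocrine list ran from 16.11 to 16.18 at 3 months and from 16.65 to 16.90 at 12 months, and that of the Schwann cell list from 9.09 to 9.32 and from 8.27 to 8.75, so that neither overlapped between the ages. The endocrine mean includes *Slc30a8*, and 8 of the 13 endocrine markers had overlapping groups. The Schwann cell mean covers 5 genes, without *Sox10*. Under the 75th percentile shift the median difference of the endocrine list was -0.08 in place of 0.32. The part of these cell types in the members' differences was not tested.

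Genes that respond to NF-κB and cytokines were read beside the inducible adhesion genes *Icam1* and *Vcam1*. Of 11 tested genes 1 rose and 1 fell at the adjusted threshold, where 4.88% of all tested genes were higher and 2.98% lower. *Sod2*, the mitochondrial superoxide dismutase, was higher by 1.48 (SE 0.30; limma, adjusted p = 0.0355), and *Socs3*, a feedback inhibitor of cytokine receptors, fell by 1.27 (SE 0.26; limma, adjusted p = 0.0368). *Icam1* and *Vcam1* themselves had differences within the spread of the arrays.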

How the data were processed

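The arrays were 1-colour Arraystar/Agilent arrays of islet RNA. Per the file headers, the deposited scanner files were written by Agilent Feature Extraction 11.0.1.1 and hold for each spot an intensity with the background subtracted, used here, and the median signals of spot and background; no normalization between arrays had been applied. They also hold quality marks of other kinds (well above background, saturated, outlier), set by the scanner software. A second deposited table holds the authors' log2 values, quantile normalized per their supplement, which correlated across probes with the values computed here at 0.9996 or more on each array.

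Here the log2 intensity was averaged over the unflagged spots of a probe and quantile normalized. Probes well above background on at least 3 of 6 arrays were kept (17944, of which 68 lacked a value on some array). Gene names came from RefSeq mRNA accessions: of 15323 mRNA probes 14274 were named. The probe with the highest mean was used for a gene. The ages were compared with limma 3.58.1 in R 4.3.3 (lmFit and eBayes, two-sided, no block) with Benjamini-Hochberg adjustment over all tested probes, and the step was tested on simulated data. The threshold of the study was a change of more than 2-fold at p under 0.05 before adjustment. Arrays have no read depth, and their number limits the precision.

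The members, the other lists, the settings and the naming rule were chosen with earlier results of these data known. The naming rule took values on each array for members past either threshold and for *Pecam1*, *Cdh5*, *Kdr*, *Tek*, *Tie1*, *Cldn5*, *Plvap*, *Vwf*, *Vegfa* and *Angpt1*, and up to 5 genes of each other list by the smallest p beside *Pdgfrb*, *Acta2*, *Ptprc*, *Ins1* and *Prss1*. The third 12-month array carries no number in the labels, and its number here only names it. Normexp used median signals with an offset of 50. The alternatives were a 75th percentile shift, normexp, the authors' table, other filters, a variance trend, blocks by replicate number, plain and paired t-tests, the 4 arrays with a common name ending, the dimmest probe of a gene, each array left out and a wider threshold, and, added after seeing the data, arrays centred on the median member. Promoters came from RefSeq assembly GRCr8, searched with Python 3.11.15; the array design uses another build, and no probe coordinates are given.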

Additional observations from a re-analysis of the deposited data

How the results depend on the processing

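At an adjusted p under 0.05, 3 members were called, with 7.86% of all tested genes. Other settings gave 6 members with normexp (11.1% of all genes), 5 with the authors' table (8.79%), 7 with an intensity trend and robust variances (11.6%) and 8 at an adjusted p under 0.1 (20.3%). It was 0 with the methods' t-test (2.38% of all genes), where 7 members had an unadjusted p under 0.05, and also 0 (limma; 0% of all genes) for the 4 arrays with a common name ending, where 6 did. Leaving out 1 array, the count ran from 0 to 4: 0 without 12-month array 1, 12-month array 3, 3-month array 1 or 3-month array 3, 2 without 12-month array 2 and 4 without 3-month array 2. Of all genes, between 1.08% and 2.29% were called when 1 of the first 4 of these arrays was left out, 10.2% without 12-month array 2 and 5.43% without 3-month array 2. Against 5 members lower at the threshold of the study, those 4 arrays gave 3, and fits without 1 array gave 3 to 6. Against 5 higher it was 3 with the 75th percentile shift, where 7.47% of all genes were higher in place of 9.8%. It was 2 with the methods' t-test, 3 for those 4 arrays and 2 to 4 in fits without 1 array. For these last settings the share of all genes at the threshold of the study is not given here, so a change in the members cannot be told from a change in the whole array. The median difference of the members was 0.185 for those 4 arrays and ran from -0.364 (without 12-month array 1) to 0.174 (without 12-month array 3). *Cldn5*, *Bcl6b* and *S1pr1* passed the threshold of the study in the same direction under all settings tried. None of the 12 members with values on each array changed sign. Of the 16 genes called in the other lists, 2 were still called without 12-month array 1, 2 without 12-month array 3, 2 without 3-month array 1, 3 without 3-month array 3, 14 without 12-month array 2 and 10 without 3-month array 2, and all 16 kept their sign; *Slc30a8* was called in each. Centring the arrays on the median member, chosen after seeing the data, called 4 members, *Ramp2* among them. Where a call was lost or gained, the cause was not tested.

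The replicate numbers were not found to pair the arrays: in the 2 numbered pairs, deviations from the age means had correlations of -0.01 and -0.31. The third pair, formed by elimination, had -0.26, which says nothing about the numbers. With a replicate block of 3 pairs, the third by elimination, 0 members and 0.411% of all genes were called in limma, 10 had an unadjusted p under 0.05 and 3 were higher at the threshold of the study. With a replicate block of the 2 numbered pairs 0 members and 0% of all genes were called in limma, 8 had an unadjusted p under 0.05 and the median difference was 0.103. With the paired t-test, the test the study's supplement names, 0 members and 0% of all genes were called, 7 had an unadjusted p under 0.05, 3 were lower and 1 higher at the threshold of the study. For this test and for the blocks the share of all genes at that threshold is not given here.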
